A study of Mus musculus with 8 samples.

Results

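Myc and the genes of ribosome biogenesis were followed across 4 groups of mouse spleen B cells. The list holds 40 genes: the transcription factor Myc, 3 enzymes long known as its metabolic targets (Srm, Odc1 and Cad), and 36 factors that make, modify, cut or assemble ribosomal RNA. A probe set was taken where the platform's table gives it exactly 1 gene symbol and that symbol is on the list. This found 42 of the 22225 probe sets with 1 symbol, for 38 of the 40 genes. Nop56 had 3 probe sets, Ppan and Rrs1 had 2 each and the other 35 genes had 1. The probe sets of Fbl and Tsr1 also carry a second symbol and were left out of the comparisons.

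RNA was measured on 8 Affymetrix whole-transcript arrays, 2 labelled biological replicates per group. All cells were spleen B cells enriched by removing cells with CD43. LMP1 cells carried the alleles LMP1flSTOP/YFPflSTOP and YFP control cells YFPflSTOP/+. Both came from female mice of breed (C57BL6XBALBc) F1, were given TAT-Cre in culture, a form of the recombinase that enters cells, and were sorted for YFP 2 days later, so each holds only cells in which the reporter was switched on. CD40-activated cells were B6/J cells of male mice kept with anti-CD40 for 2 days, and naive control cells were B6/J cells of male mice that went into RNA extraction directly. LMP1, a membrane protein of Epstein-Barr virus, needs no ligand to signal and uses many adaptors of the receptor CD40. LMP1 with YFP control is the comparison in which breed, sex, recombinase and sort match. CD40-activated with naive control matches breed and sex but sets cultured cells against uncultured ones. The arrays of LMP1 and YFP control are marked in the labels as re-analysed, so comparisons across the pairs cannot be told apart from a difference between these array sets.

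A resting B cell makes few ribosomes, and one that is driven to grow must make many. RNA polymerase I transcribes the ribosomal RNA precursor in the nucleolus, small nucleolar ribonucleoproteins (snoRNPs) guide its chemical modification, and large assemblies of processing factors cut and fold it into the small and the large ribosomal subunit. MYC binds DNA with its partner MAX, with the E-box CACGTG as its best known site, and genes of all these steps are among its classical targets, together with enzymes that make polyamines and pyrimidine nucleotides.

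The E-box letters were looked for in RefSeq promoter windows of build GRCm38.p6, which run from 250 bases before to 50 bases after each start site. A window was found for 32 of the 38 measured genes, 35 windows in all (none for Myc, Srm, Rrp12, Bop1, Rrs1 and Npm1), and 6 windows of 6 genes held CACGTG, a motif that reads the same on both strands. That is 17.1% of the members' windows, against 7.84% of the 21263 windows of protein-coding genes. The members' windows also had a higher median GC content, 59.7% against 56.3%. The match is a description of letters, not of binding. The 6 sites are given here 5′ to 3′ with at most 12 bases on each side, because they are the matches behind that share, and the capitals mark the E-box.
Nop2: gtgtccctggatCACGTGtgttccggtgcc
Pes1: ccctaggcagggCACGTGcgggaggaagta
Wdr43: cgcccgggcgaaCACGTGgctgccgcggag
Nle1: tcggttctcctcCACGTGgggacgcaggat
Utp20: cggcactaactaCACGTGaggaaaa
Mybbp1a: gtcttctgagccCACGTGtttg
Each genome position given next for the 6 genes is that of the whole printed stretch around the E-box. In Nop2 the E-box began 60 bases before the start site, with the stretch at chr6:125131811-125131840 (plus strand). In the other 5 genes it began after the start site: at base 3 in Pes1, chr11:3963965-3963994 (plus strand), at base 18 in Wdr43, chr17:71616220-71616249 (plus strand), at base 24 in Nle1, chr11:82908355-82908384 (minus strand), at base 38 in Utp20, chr10:88826765-88826789 (minus strand), and at base 41 in Mybbp1a, chr11:72441355-72441376 (plus strand). The whole stretch of 250 bases before the start site of Nop2, the only one of the 6 with the E-box upstream, lies at chr6:125131633-125131882 on the plus strand and is shown for its context.
Nop2: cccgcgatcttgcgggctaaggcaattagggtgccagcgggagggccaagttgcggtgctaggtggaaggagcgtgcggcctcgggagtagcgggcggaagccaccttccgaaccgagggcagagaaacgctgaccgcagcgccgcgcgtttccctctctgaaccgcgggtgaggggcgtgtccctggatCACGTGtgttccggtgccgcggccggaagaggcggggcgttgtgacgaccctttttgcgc
Nop2 rose by 2.54 log2 units with LMP1 and the other 5 genes by 1.36 (Pes1) to 1.93 (Utp20), with a median of 1.69 over the 6. The 29 probe sets of the 26 genes whose windows lack these letters ran from -0.41 (Ppan 17515058) to 3.04 (Nop56 17376274), with a median of 1.66. The values of the 6 lay within the range of the others.

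All levels below are log2 expression values as deposited, and levels of different probe sets are not compared. A change is a difference of group means on that scale, so 1 unit is a doubling, and the error beside it is the standard error from the limma model of all 8 arrays (n = 2 arrays per group). A probe set passed at an adjusted p under 0.05 over all 22225 probe sets. Array medians lay between 5.52 and 5.68. Replicates correlated across probe sets with r = 0.996 for LMP1, 0.974 for YFP control, 0.993 for CD40-activated and 0.981 for naive control. Between the LMP1 arrays 15 probe sets were more than 1 log2 unit apart, and between the YFP controls, which stood apart from each other, 990. YFP control 2 was below YFP control 1 for 32 of the 42 member probe sets, with a median difference of -0.30, against 0.06 over all probe sets. B cell markers were at 9.57 to 12.08 on the LMP1 arrays, 9.94 to 12.85 on YFP control, 9.92 to 12.53 on CD40-activated and 10.11 to 12.35 on naive control (5 genes). The naive arrays carried more signal of other cells: the summed level of 5 T cell markers was 29.39 and 27.11 on the CD40-activated arrays against 43.22 and 42.35 on the naive arrays, that of 4 NK cell markers 18.86 and 18.46 against 28.96 and 26.45, and that of 2 erythroid markers 10.81 and 10.79 against 21.17 and 17.87. In bulk RNA, fewer cells of a type and less RNA per cell cannot be told apart.

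The median member probe set was at 9.79 and 9.83 on the LMP1 arrays, 8.28 and 7.83 on the YFP control arrays, 9.05 and 8.96 on the CD40-activated arrays and 8.14 and 8.08 on the naive control arrays. In these medians LMP1 cells stood highest, CD40-activated cells between, and the controls lowest and close together. By group means, LMP1 was the highest group for 38 of the 42 probe sets, CD40-activated for 2 and naive control for 2. YFP control was the lowest for 26, naive control for 15 and CD40-activated for 1.

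**Figure D1:**
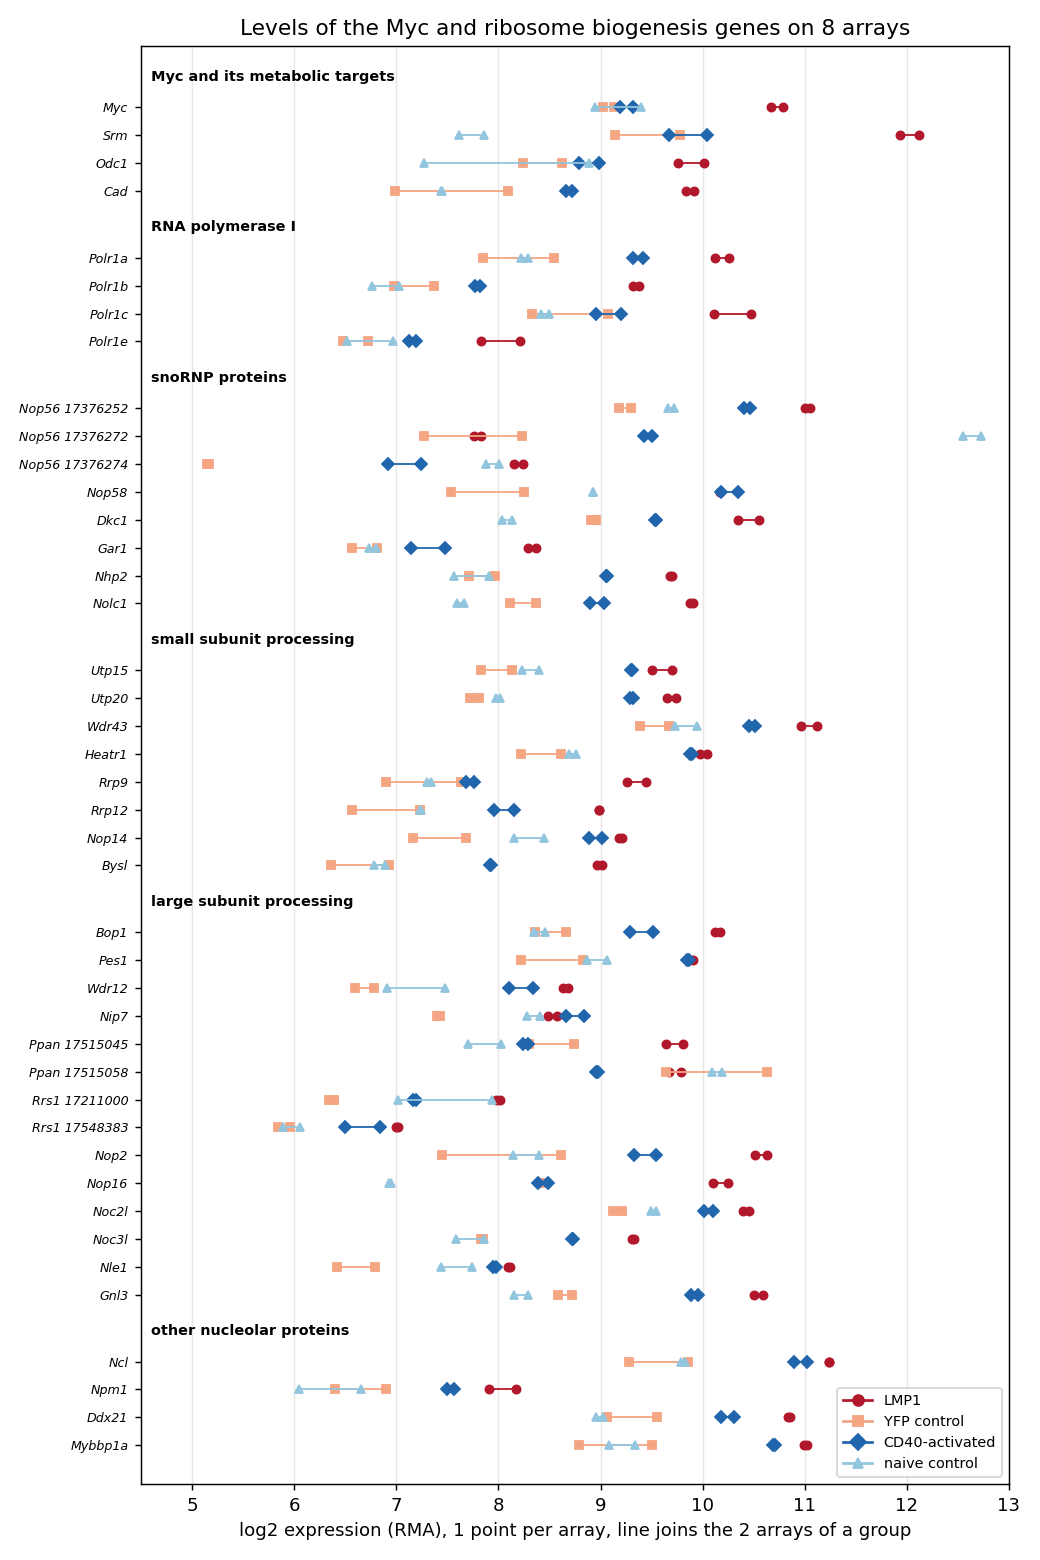
Log2 expression of the 42 probe sets on 8 arrays, grouped by the members' roles; each point is an array and a line joins the 2 arrays of a group. LMP1 arrays lie farthest to the right for most genes, and YFP control and naive control arrays lie mostly to the left. Among the exceptions by group means, naive control is highest for Nop56 17376272 and Ppan 17515058. CD40-activated is highest for Nop58 and Nip7, and naive control is above CD40-activated for Nop56 17376274 and Rrs1 17211000.

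With LMP1, 40 of the 42 probe sets rose relative to YFP control and 0 fell, each of the 40 by at least 1 log2 unit. Over all probe sets 14.8% rose and 8.31% fell in that comparison. The median member changed by 1.65, and the median of all probe sets by -0.07. Both arrays of LMP1 lay above both arrays of YFP control for each of the 40. The exceptions were a Nop56 and a Ppan probe set described further on. The count stayed at 39 to 41 when any array of the pair was left out, and was 39 without YFP control 2, where the median change was 1.53. Beside this, the summed level of 5 B cell markers was 54.52 and 54.72 on the LMP1 arrays against 59.97 and 58.76 on the YFP control arrays, and that of 5 monocyte and macrophage markers 23.06 and 23.56 against 27.38 and 29.09. Of the B cell markers 3 of 5 fell and of the monocyte markers 2 of 5. The summed level of 3 dendritic cell markers was 22.12 and 21.79 on the LMP1 arrays against 17.39 and 17.78 on the YFP control arrays, with 2 of 3 higher. That of 5 probe sets for 4 plasma cell markers was 29.99 and 30.2 on the LMP1 arrays against 35.8 and 35.51 on the YFP control arrays, with 2 of the 5 lower. The part of these markers in the members' changes was not tested.

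With CD40 activation, 28 of the 42 rose relative to naive control, 3 fell and 11 did not pass. Over all probe sets 10.9% rose and 6.59% fell. The median member changed by 0.94, against -0.05 over all probe sets. The 3 that fell were 2 Nop56 probe sets and 1 of Ppan. Without 1 of the CD40-activated arrays the count that rose was 17 (array 1 left out) or 15 (array 2 left out), while the median change was 0.92 and 0.91. Between these groups 5 of 5 T cell markers, 3 of 4 NK cell markers and 2 of 2 erythroid markers fell, at the sums given above, and 3 of 5 monocyte markers fell, with sums of 22.94 and 24.02 on the CD40-activated arrays against 30.52 and 27.39 on the naive arrays. Their part was not tested. The 28 that rose were also among the 40 that rose with LMP1. Since 40 of the 42 rose there, most of any 28 members would be among them. The overlap therefore says little about a link between the responses. Over all probe sets 6.62% rose in both comparisons, which share no array.

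Myc itself differed between LMP1 and CD40-activated cells, groups that also differ in breed, sex, recombinase, sort and array set. The CD40 comparison also sets cultured cells against uncultured ones. None of these can be told apart from the stimulus. Myc was at 10.67 and 10.79 on the LMP1 arrays, 9.13 and 9.02 on the YFP control arrays, 9.32 and 9.19 on the CD40-activated arrays and 9.40 and 8.95 on the naive control arrays. The LMP1 arrays stood above all others, and the CD40-activated, YFP control and naive arrays lay close together and overlapped in part. Myc was up by 1.66 ± 0.19 (adjusted p = 0.000218) in LMP1 over YFP control, 3.15-fold, and by 1.48 ± 0.19 (adjusted p = 0.00072) in LMP1 over CD40-activated cells. Between CD40-activated and naive cells it was at 0.08 ± 0.19 (adjusted p = 0.821), and between YFP control and naive cells at -0.10 ± 0.19 (adjusted p = 0.757), neither of which passed. The Myc response to LMP1 exceeded that to CD40 by 1.57 ± 0.27 (adjusted p = 0.0065), and this difference passed in each of the 15 alternatives run, with values from 1.35 to 1.80.

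Srm, the spermidine synthase of the polyamine pathway, had the largest change of the metabolic targets. It was at 11.93 and 12.12 on the LMP1 arrays, 9.78 and 9.14 on the YFP control arrays, 10.04 and 9.67 on the CD40-activated arrays and 7.61 and 7.86 on the naive control arrays. Here the groups formed 3 steps: LMP1 on top, CD40-activated and YFP control overlapping in the middle, and naive control at the bottom. Srm rose by 2.56 ± 0.24 (adjusted p = 7.08e-05) with LMP1 and by 2.12 ± 0.24 (adjusted p = 0.000343) with CD40. YFP control exceeded naive control by 1.73 ± 0.24 (adjusted p = 0.00121), while CD40-activated and YFP control cells did not differ past the threshold, at 0.40 ± 0.24 (adjusted p = 0.322). Cad, the enzyme that opens pyrimidine synthesis, was at 9.84 and 9.92 on the LMP1 arrays, 8.09 and 6.99 on the YFP control arrays, 8.66 and 8.72 on the CD40-activated arrays and 7.45 and 7.44 on the naive control arrays. It rose by 2.34 ± 0.29 (adjusted p = 0.000372) with LMP1 and by 1.25 ± 0.29 (adjusted p = 0.0165) with CD40, with no overlap in either pair. Odc1, ornithine decarboxylase, which feeds Srm with putrescine, was at 9.76 and 10.01 on the LMP1 arrays, 8.62 and 8.24 on the YFP control arrays, 8.99 and 8.79 on the CD40-activated arrays and 8.89 and 7.27 on the naive control arrays. The naive arrays were 1.62 apart, and Odc1 passed only with LMP1, at 1.46 ± 0.41 (adjusted p = 0.0289). That call was lost without YFP control 2, without either LMP1 array and with quantile normalization within each set, where the change lay between 1.19 and 1.58. Its change with CD40 was 0.81 ± 0.41 (adjusted p = 0.221).

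**Figure D2:**
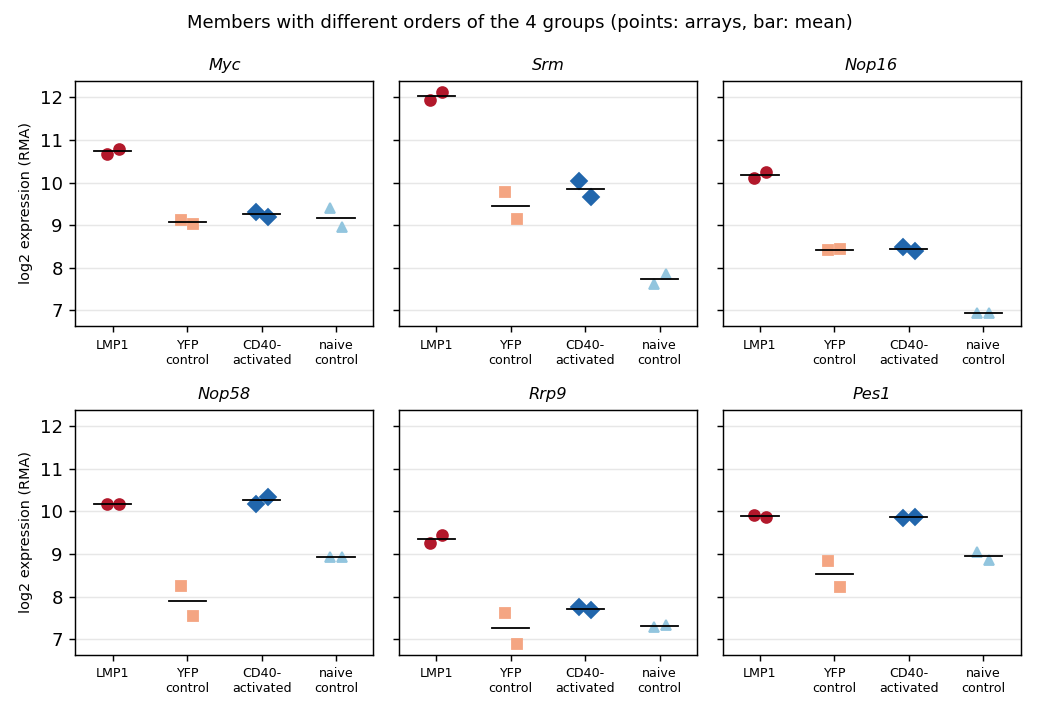
Log2 expression (y axis) of 6 members in the 4 groups; points are arrays and bars are means of 2 arrays. Myc and Rrp9 are high on the LMP1 arrays alone, Nop58 and Pes1 are at similar levels on LMP1 and CD40-activated arrays, and Srm and Nop16 have YFP control level with CD40-activated and above naive control.

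The 4 subunits of RNA polymerase I among the members rose with LMP1. Polr1b, the second largest catalytic subunit, was at 9.32 and 9.38 on the LMP1 arrays, 7.37 and 6.98 on the YFP control arrays, 7.77 and 7.82 on the CD40-activated arrays and 7.03 and 6.76 on the naive control arrays. The LMP1 arrays were about 1.5 units above the CD40-activated ones, which in turn lay above both controls. It rose by 2.17 ± 0.19 (adjusted p = 4.82e-05) with LMP1 and by 0.90 ± 0.19 (adjusted p = 0.00901) with CD40. Polr1a, the largest subunit, was at 10.26 and 10.12 on the LMP1 arrays, 8.54 and 7.85 on the YFP control arrays, 9.32 and 9.42 on the CD40-activated arrays and 8.29 and 8.22 on the naive control arrays. It rose by 2.00 ± 0.22 (adjusted p = 0.000189) with LMP1 and by 1.11 ± 0.22 (adjusted p = 0.00726) with CD40. Polr1c, which RNA polymerase III shares, and Polr1e, a polymerase I specific subunit, rose by 1.59 ± 0.25 and 1.42 ± 0.21 with LMP1. With CD40 they were at 0.62 ± 0.25 (adjusted p = 0.121) and 0.41 ± 0.21 (adjusted p = 0.223) and did not pass. All 4 were higher in LMP1 than in CD40-activated cells, by 0.82 (Polr1a) to 1.55 (Polr1b).

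Among snoRNP proteins, Nop58, a core protein of the box C/D particles that guide 2′-O-methylation, was at 10.17 and 10.17 on the LMP1 arrays, 8.25 and 7.54 on the YFP control arrays, 10.18 and 10.35 on the CD40-activated arrays and 8.93 and 8.93 on the naive control arrays. LMP1 and CD40-activated cells were level, naive control lay below them and YFP control lowest. Nop58 rose by 2.27 ± 0.22 (adjusted p = 1e-04) with LMP1 and by 1.33 ± 0.22 (adjusted p = 0.003) with CD40, while LMP1 and CD40-activated cells differed by -0.10 ± 0.22 (adjusted p = 0.87). YFP control stood below naive control, at -1.03 ± 0.22 (adjusted p = 0.0114). Of the box H/ACA particles, which guide pseudouridylation, the enzyme Dkc1 (dyskerin) was at 10.35 and 10.55 on the LMP1 arrays, 8.91 and 8.96 on the YFP control arrays, 9.53 and 9.54 on the CD40-activated arrays and 8.04 and 8.13 on the naive control arrays. The groups did not overlap and ran LMP1, CD40-activated, YFP control, naive control. Dkc1 rose by 1.51 ± 0.16 with LMP1 and 1.45 ± 0.16 with CD40, nearly the same amount. Of their other core proteins, Gar1 rose by 1.64 ± 0.18 with LMP1, and with CD40 was at 0.55 ± 0.18 (adjusted p = 0.0665). Nhp2 rose by 1.85 ± 0.18 and 1.31 ± 0.18 and the nucleolar chaperone Nolc1 by 1.66 ± 0.17 and 1.34 ± 0.17 in the LMP1 and CD40 comparisons.

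All 8 small subunit factors tested among the members rose with LMP1, by 1.51 (Wdr43) to 2.35 (Bysl). With CD40 6 of the 8 rose. Rrp9, a protein bound to the U3 snoRNA, was at 9.26 and 9.45 on the LMP1 arrays, 7.63 and 6.90 on the YFP control arrays, 7.76 and 7.68 on the CD40-activated arrays and 7.30 and 7.34 on the naive control arrays. Only the LMP1 arrays stood out, and the other 6 lay between 6.90 and 7.76. Rrp9 rose by 2.09 ± 0.23 (adjusted p = 0.000177) with LMP1 and was at 0.40 ± 0.23 (adjusted p = 0.279) with CD40. Bysl, needed late in small subunit maturation, was at 8.97 and 9.01 on the LMP1 arrays, 6.93 and 6.36 on the YFP control arrays, 7.92 and 7.93 on the CD40-activated arrays and 6.89 and 6.78 on the naive control arrays. It rose by 2.35 ± 0.20 (adjusted p = 4.82e-05) and 1.09 ± 0.20 (adjusted p = 0.00488) in the LMP1 and CD40 comparisons, with the LMP1 arrays on top. Utp20, a scaffold of the early small subunit precursor, was at 9.65 and 9.74 on the LMP1 arrays, 7.72 and 7.81 on the YFP control arrays, 9.29 and 9.32 on the CD40-activated arrays and 8.02 and 7.98 on the naive control arrays. It rose by 1.93 ± 0.16 (adjusted p = 3.53e-05) with LMP1 and by 1.30 ± 0.16 (adjusted p = 0.000494) with CD40, and LMP1 was above CD40-activated by 0.39 ± 0.16 (adjusted p = 0.14), which did not pass. Heatr1, Utp15 and Wdr43, which act in the same early assembly, rose with CD40 by 1.17, 0.99 and 0.65, and Rrp12, an export factor of precursor subunits, by 0.82. Nop14, of the same assembly, was at 0.65 ± 0.21 (adjusted p = 0.0569) with CD40 and rose by 1.77 with LMP1. YFP control stood below naive control here too, at -0.88 ± 0.21 (adjusted p = 0.0159).

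Of the 14 member probe sets for factors of the large subunit 13 rose with LMP1, and 9 rose and 1 fell with CD40. Pes1, Bop1 and Wdr12 form the PeBoW complex, which is needed for 28S ribosomal RNA. Pes1 was at 9.91 and 9.87 on the LMP1 arrays, 8.83 and 8.22 on the YFP control arrays, 9.85 and 9.87 on the CD40-activated arrays and 9.06 and 8.87 on the naive control arrays. LMP1 and CD40-activated arrays were level and overlapped, at a difference of 0.03 ± 0.21 (adjusted p = 0.961), above both controls. Wdr12 rose by 1.97 ± 0.21 with LMP1 and 1.02 ± 0.21 with CD40, and Bop1 by 1.64 ± 0.18 and 1.00 ± 0.18. Among the 3, only Bop1 was past the threshold between LMP1 and CD40-activated cells, at 0.74 ± 0.18 (adjusted p = 0.0182).

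Nop2, an RNA methyltransferase, was at 10.63 and 10.51 on the LMP1 arrays, 8.61 and 7.45 on the YFP control arrays, 9.54 and 9.33 on the CD40-activated arrays and 8.40 and 8.14 on the naive control arrays. It rose by 2.54 ± 0.31 (adjusted p = 0.000344) with LMP1 and by 1.17 ± 0.31 (adjusted p = 0.0301) with CD40, with YFP controls 1.16 apart. Nop16, a nucleolar protein of large subunit assembly, was at 10.10 and 10.25 on the LMP1 arrays, 8.41 and 8.44 on the YFP control arrays, 8.49 and 8.39 on the CD40-activated arrays and 6.95 and 6.93 on the naive control arrays. It formed the same 3 steps as Srm: up by 1.75 ± 0.16 (adjusted p = 6.21e-05) with LMP1, by 1.50 ± 0.16 (adjusted p = 0.000241) with CD40, and by 1.49 ± 0.16 (adjusted p = 0.000312) in YFP control over naive control, with CD40-activated and YFP control arrays overlapping. Gnl3 (nucleostemin), a nucleolar GTPase, was at 10.50 and 10.59 on the LMP1 arrays, 8.58 and 8.72 on the YFP control arrays, 9.89 and 9.95 on the CD40-activated arrays and 8.29 and 8.15 on the naive control arrays. It rose by 1.90 ± 0.16 (adjusted p = 4.48e-05) with LMP1 and by 1.70 ± 0.16 (adjusted p = 0.000138) with CD40, the largest increase with CD40 among the members after Srm. Noc3l and Noc2l, whose yeast relatives escort large subunit precursors, also rose. Noc3l rose by 1.48 ± 0.16 with LMP1 and 1.00 ± 0.16 with CD40, and Noc2l by 1.26 ± 0.16 and 0.54 ± 0.16. Nip7, which joins early large subunit precursors, was at 8.57 and 8.49 on the LMP1 arrays, 7.43 and 7.40 on the YFP control arrays, 8.84 and 8.66 on the CD40-activated arrays and 8.41 and 8.28 on the naive control arrays. The YFP control arrays stood below all others, and CD40-activated arrays were slightly above LMP1. LMP1 and CD40-activated cells were at a difference of -0.22 ± 0.16 (adjusted p = 0.471). Nip7 rose by 1.11 ± 0.16 (adjusted p = 0.000831) with LMP1, was at 0.41 ± 0.16 (adjusted p = 0.12) with CD40, and was lower in YFP control than in naive cells, at -0.93 ± 0.16 (adjusted p = 0.00379). Nle1, which helps release assembly factors from large subunit precursors, had a like pattern, at 1.50 with LMP1, 0.37 ± 0.19 (adjusted p = 0.211) with CD40 and -0.99 ± 0.19 (adjusted p = 0.00594) in YFP control against naive control.

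The remaining nucleolar proteins among the members rose in both comparisons. Ncl (nucleolin), which binds the ribosomal RNA precursor, was at 11.24 and 11.24 on the LMP1 arrays, 9.86 and 9.28 on the YFP control arrays, 10.89 and 11.02 on the CD40-activated arrays and 9.79 and 9.83 on the naive control arrays. LMP1 and CD40-activated arrays were within 0.35 units of each other and above the controls, which overlapped. It rose by 1.67 ± 0.20 (adjusted p = 0.000315) with LMP1 and by 1.15 ± 0.20 (adjusted p = 0.00399) with CD40. Npm1 (nucleophosmin), a chaperone of subunit assembly and export, was at 7.91 and 8.17 on the LMP1 arrays, 6.40 and 6.90 on the YFP control arrays, 7.50 and 7.57 on the CD40-activated arrays and 6.65 and 6.05 on the naive control arrays, up by 1.39 ± 0.24 (adjusted p = 0.00229) and 1.19 ± 0.24 (adjusted p = 0.00812) in the LMP1 and CD40 comparisons. Ddx21, an RNA helicase, rose by 1.54 ± 0.19 and 1.25 ± 0.19, and Mybbp1a, a nucleolar partner of the ribosomal RNA processing machinery, by 1.86 ± 0.23 and 1.49 ± 0.23. None of the 4 passed between LMP1 and CD40-activated cells, where they were at 0.29 (Ncl) to 0.60 (Ddx21).

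Genes with several probe sets gave different answers by probe set. For Nop56, a core box C/D protein whose gene also carries small nucleolar RNAs in its introns, probe set 17376252 was at 11.05 and 11.00 on the LMP1 arrays, 9.30 and 9.18 on the YFP control arrays, 10.46 and 10.41 on the CD40-activated arrays and 9.72 and 9.66 on the naive control arrays. It followed most members, up by 1.78 ± 0.16 (adjusted p = 5.28e-05) with LMP1 and by 0.75 ± 0.16 (adjusted p = 0.00933) with CD40. Probe set 17376272 was at 7.76 and 7.83 on the LMP1 arrays, 8.23 and 7.27 on the YFP control arrays, 9.43 and 9.50 on the CD40-activated arrays and 12.55 and 12.73 on the naive control arrays. Its highest values were the naive arrays, with CD40-activated arrays lower, at -3.17 ± 0.27 (adjusted p = 7.68e-05) and YFP control arrays lower, at -4.89 ± 0.27 (adjusted p = 1.42e-05). The LMP1 arrays lay between the YFP control arrays, at a change of 0.04 ± 0.27 (adjusted p = 0.932). Probe set 17376274 was at 8.15 and 8.24 on the LMP1 arrays, 5.15 and 5.17 on the YFP control arrays, 6.92 and 7.24 on the CD40-activated arrays and 8.01 and 7.88 on the naive control arrays. It had the largest increase with LMP1 of all member probe sets, 3.04 ± 0.17 (adjusted p = 8.3e-06), but LMP1 and naive arrays were close, and the YFP control arrays stood below the naive ones, at -2.79 ± 0.17 (adjusted p = 2.08e-05). With CD40 it fell, at -0.86 ± 0.17 (adjusted p = 0.00725). Which part of the gene each probe set reads is not given in the sources used here.

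Ppan, a large subunit factor, had probe set 17515045 at 9.81 and 9.64 on the LMP1 arrays, 8.30 and 8.74 on the YFP control arrays, 8.29 and 8.24 on the CD40-activated arrays and 7.70 and 8.03 on the naive control arrays. It rose by 1.21 ± 0.20 (adjusted p = 0.00183) with LMP1 and was at 0.40 ± 0.20 (adjusted p = 0.214) with CD40. Probe set 17515058 was at 9.67 and 9.79 on the LMP1 arrays, 10.63 and 9.64 on the YFP control arrays, 8.98 and 8.96 on the CD40-activated arrays and 10.09 and 10.19 on the naive control arrays. It fell with CD40, at -1.17 ± 0.27 (adjusted p = 0.016), and was at -0.41 ± 0.27 (adjusted p = 0.343) with LMP1, with LMP1 arrays between the YFP control arrays. Without YFP control 2 that LMP1 change was -0.90 and passed (adjusted p = 0.00513), and without YFP control 1 it was 0.09. The probe sets of Rrs1, which brings the 5S particle into the large subunit in yeast, both rose with LMP1, 17211000 by 1.64 ± 0.26 and 17548383 by 1.11 ± 0.18. They parted in the naive arrays. Probe set 17211000 was at 7.16 and 7.19 on the CD40-activated arrays and 7.02 and 7.94 on the naive control arrays, a change of -0.30 ± 0.26 (adjusted p = 0.474). Probe set 17548383 was at 6.50 and 6.84 on the CD40-activated arrays and 5.89 and 6.06 on the naive control arrays, a rise of 0.69 ± 0.18 (adjusted p = 0.0235).

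**Figure D3:**
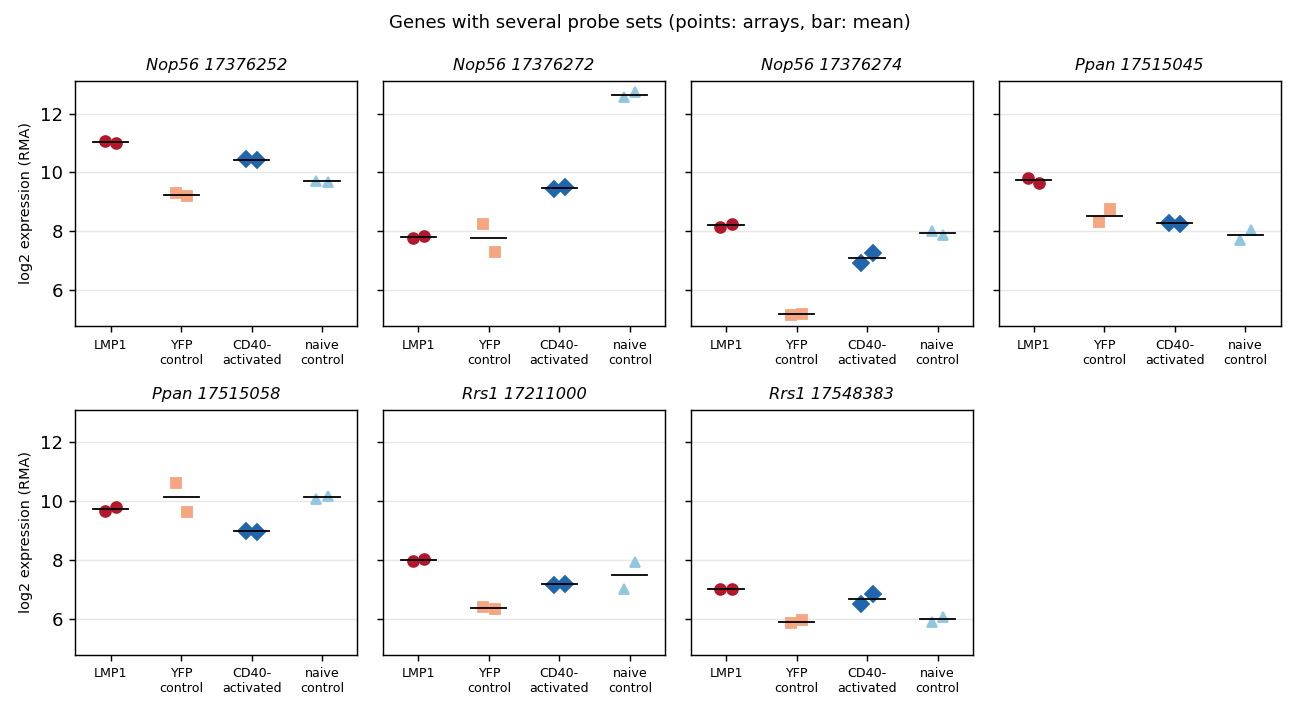
Log2 expression (y axis) of the 7 probe sets of Nop56, Ppan and Rrs1 in the 4 groups; points are arrays and bars are means of 2 arrays. Nop56 17376252 is highest on LMP1 arrays, Nop56 17376272 reaches 12.55 and 12.73 on the naive arrays, and Nop56 17376274 is lowest on the YFP control arrays.

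The responses to LMP1 and to CD40 were then set against each other within the model, as the change from YFP control minus the change from naive control. The difference was positive for all 42 probe sets, with a median of 0.79, against 0.02 over all probe sets, and it passed for 12 of them. Over all probe sets 4.18% passed with a larger LMP1 response and 4.12% with a smaller one. The 12 were Myc (1.57 ± 0.27), Polr1b (1.27 ± 0.26), the 3 Nop56 probe sets, Gar1 (1.09 ± 0.26), Rrp9 (1.69 ± 0.32), Rrp12 (1.27 ± 0.31), Nop14 (1.12 ± 0.29), Bysl (1.25 ± 0.28), Rrs1 17211000 (1.94 ± 0.37) and Nle1 (1.12 ± 0.26). Of the small subunit factors 4 of 8 passed, and of the other nucleolar proteins 0 of 4. Cell type markers also passed in this contrast. The difference was positive for 5 of 5 T cell, 3 of 4 NK cell, 2 of 2 erythroid and 2 of 3 dendritic cell markers. Of the T cell, NK cell and erythroid markers 0 rose with LMP1, while 5 of 5, 3 of 4 and 2 of 2 fell with CD40. The difference was negative for 3 of 5 B cell markers, 3 of 5 plasma cell probe sets and 1 of 5 monocyte markers. The part of these markers in the difference was not tested. Since each control enters the difference, a low YFP control level adds to it. Of the 12, these passed as lower in YFP control than in naive cells: Nop56 17376272 (-4.89), Nop56 17376274 (-2.79), Rrs1 17211000 (-1.11), Nle1 (-0.99) and Nop14 (-0.88). When 1 array was left out, the number that passed moved among the members and over all probe sets. The median difference of the members then lay between 0.5925 (without YFP control 2) and 0.825 (without YFP control 1). The sign was positive for at least 40 of 42 in each of these fits and the other fits that kept all 42, and for 38 of 38 with the brightest probe set per gene.

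LMP1 and CD40-activated cells were also compared directly, with breed, sex, recombinase and sort differing between them. Of the 42 probe sets 22 were higher in LMP1 cells, 1 was lower (Nop56 17376272) and 19 did not pass, where 9.48% of all probe sets were higher and 5.3% lower. The median difference was 0.69, against 0.00 over all probe sets. The largest were those of Srm (2.17 ± 0.24), Nop16 (1.74 ± 0.16), Rrp9 (1.64 ± 0.23), Polr1b (1.55 ± 0.19) and Myc (1.48 ± 0.19), each of which passed in all 11 alternatives. The count was 31 with array weights and 31 with only these groups, where 18.2% and 17.5% of all probe sets were higher. It was 19 with the replicate block, against 9.06% of all. Fewer probe sets passed, among the members and over all, when 1 array was left out. The median difference of the members then lay between 0.6625 and 0.705.

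**Figure D4:**
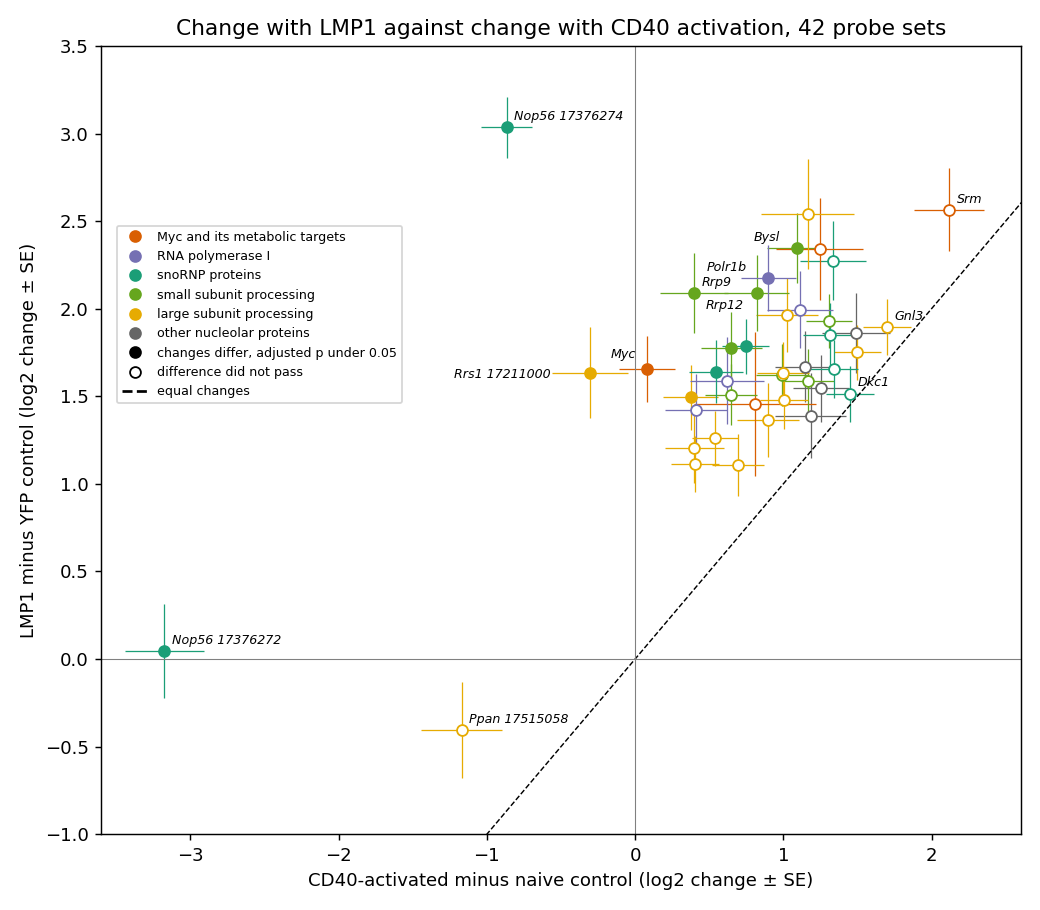
Log2 change in LMP1 over YFP control (y axis) against that in CD40-activated over naive control (x axis) for the 42 probe sets, with standard errors, coloured by role, and with names where there is room. All points lie above the dashed line of equal changes, and filled points are the 12 whose 2 changes differ at an adjusted p under 0.05.

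Between the controls 30 of the 42 member probe sets did not pass. Between YFP control, kept in culture for 2 days, and naive control, 5 of the 42 were higher and 7 lower, with a median of -0.09. Of all probe sets 10.9% were higher and 7.81% lower there. The count of 5 higher is near the background, and that of 7 lower is above it. The 5 were Srm, Nop16, Dkc1 (0.85 ± 0.16), Nolc1 (0.61 ± 0.17) and Ppan 17515045 (0.66 ± 0.20). The 7 were Nop56 17376272 and 17376274, Nop58, Nop14, Nip7, Nle1 and Rrs1 17211000 (-1.11 ± 0.26). Without YFP control 1 more probe sets passed as lower, among the members and over all. The member median was then -0.355, against 0.025 over all probe sets. Without YFP control 2 these medians were 0.05 and -0.01. CD40-activated cells, set against YFP control cells that had also been cultured, were higher for 31 of 42 and lower for 1, with a median of 1.05, where 7.88% of all probe sets were higher and 5.97% lower. The 10 that did not pass there were Myc, at 0.18 ± 0.19 (adjusted p = 0.599), Srm, Odc1 (0.46 ± 0.41), Polr1b (0.62 ± 0.19), Polr1c (0.38 ± 0.25), Polr1e (0.55 ± 0.21), Rrp9 (0.45 ± 0.23), Ppan 17515045 (-0.26 ± 0.20), Rrs1 17211000 (0.81 ± 0.26) and Nop16 (0.02 ± 0.16). The 1 lower was Ppan 17515058, at -1.17 ± 0.27 (adjusted p = 0.0198). Culture, breed, sex, recombinase and sort cannot be told apart in the first of these comparisons, and anti-CD40 cannot be told apart from breed, sex, recombinase and sort in the second. They share arrays with the comparisons above.

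A wider list of ribosome biogenesis factors, 115 measured genes on 130 probe sets, held no member. Of the 130 probe sets 108 rose and 0 fell with LMP1, with a median of 1.27, where 14.8% of all probe sets rose and 8.31% fell. With CD40 66 rose and 2 fell, with a median of 0.68, where 10.9% of all probe sets rose and 6.59% fell. Of the further small subunit factors 37 of 44 probe sets rose with LMP1 and 20 with CD40, led with LMP1 by Utp4 (2.33 ± 0.19) and the RNA acetyltransferase Nat10 (2.28 ± 0.22). Riok3, a kinase of late small subunit maturation, was at 0.01 ± 0.18. With CD40 the largest change among them was that of Noc4l (1.90 ± 0.23). Of further large subunit factors 39 of 48 rose with LMP1 and 24 with CD40, with Rrp1b at 2.46 ± 0.16 with LMP1 and Nifk at 1.90 ± 0.16 with CD40, while Nop53 was at 0.05 ± 0.25 with LMP1. All 9 snoRNP assembly factors rose with LMP1, among them the paired helicases Ruvbl2 (2.17 ± 0.20) and Ruvbl1 (1.83 ± 0.23), and 7 of them with CD40. Of 9 subunits of the RNA exosome, which trims ribosomal RNA ends, 8 rose with LMP1 and 6 with CD40, with Exosc2 at 2.13 ± 0.25 with LMP1 and Exosc9 at 1.50 ± 0.18 with CD40. Of 20 probe sets for other polymerase I subunits and factors 15 rose with LMP1, and 9 rose and 2 fell with CD40. The subunit Znrd1 did not pass with LMP1, at -0.22 ± 0.19 (adjusted p = 0.471), and rose by 1.305 ± 0.19 with CD40. Taf1d, a polymerase I initiation factor, held 10 of these 20 probe sets, with 9 of the 15 rises with LMP1, 6 of the 9 rises with CD40 and both falls. Its changes with CD40 ran from -1.86 ± 0.22 and -1.46 ± 0.18 on the probe sets that fell to 1.98 ± 0.17 on the one that rose most. Without Taf1d, 99 of 120 probe sets of the wider list rose with LMP1 and 60 rose and 0 fell with CD40.

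The list of Myc's protein network held 11 genes, of which 0 rose and 3 fell with LMP1, with a median of -0.07. Since 14.8% of all probe sets rose and 8.31% fell in that comparison, a count of 0 risen among so few genes is near the background. Those that fell were Mxd4 (-2.10 ± 0.34) and Mnt (-0.81 ± 0.20), repressors that pair with Max, and Mlxip (-1.17 ± 0.16), a partner of Mlx. Mxd4 was at 6.23 and 5.95 on the LMP1 arrays, 8.77 and 7.61 on the YFP control arrays, 9.16 and 9.41 on the CD40-activated arrays and 8.78 and 8.21 on the naive arrays, so the LMP1 arrays lay below all others. Its response to LMP1 differed from that to CD40 by -2.89 ± 0.48 (adjusted p = 0.00596). Max was at -0.04 ± 0.20 with LMP1 and 0.41 ± 0.20 with CD40, Mycn at -0.17 ± 0.17 and -0.36 ± 0.17, and Mycl at 0.05 ± 0.22 and -0.42 ± 0.22, none of which passed. With CD40 4 of the 11 fell, namely Mxd1 (-1.10 ± 0.28), Mxi1 (-0.94 ± 0.26), Mlxip (-0.81 ± 0.16) and Mnt (-0.69 ± 0.20), and Mlx rose (0.74 ± 0.16). In that comparison 10.9% of all probe sets rose and 6.59% fell. Mga was at -0.11 ± 0.16 with LMP1 and 0.10 ± 0.16 with CD40, and Mxd3 at 0.08 ± 0.17 and 0.23 ± 0.17. These and, with LMP1, Mxd1 (0.22 ± 0.28), Mxi1 (0.53 ± 0.26) and Mlx (-0.07 ± 0.16) did not pass. With CD40 Mxd4 was at 0.79 ± 0.34 and did not pass.

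The enzymes next to Srm, Odc1 and Cad were mixed. Of 12 probe sets for further polyamine and pyrimidine genes 6 rose and 1 fell with LMP1, and 3 rose and 3 fell with CD40. The shares over all probe sets were 14.8% and 8.31% with LMP1 and 10.9% and 6.59% with CD40. Uck2, a uridine-cytidine kinase of the salvage route, rose by 2.75 ± 0.37 and 2.37 ± 0.18 on probe sets 17229389 and 17229391 with LMP1 and by 2.46 ± 0.18 on 17229391 with CD40. Ctps2 fell with LMP1 (-1.38 ± 0.18) and CD40 (-1.08 ± 0.18), while its relative Ctps, which makes the same nucleotide, CTP, rose by 1.06 ± 0.16 with CD40. Smox, the spermine oxidase, fell with CD40 (-1.52 ± 0.25).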

How the data were processed

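Levels are log2 expression values, 1 per probe set and array, as the authors deposited them. Per the submitters' processing notes they were made with RMA in the oligo package. Versions, the genome build and the order of steps are not given in the sources used here. No depth applies to arrays, and their number limits the precision. Of 25349 probe sets, 22225 had 1 gene symbol in the platform's table and were tested, 616 had several and 2508 had none.

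Groups were taken from the sample titles. All 8 arrays were fitted in 1 limma model of 4 group means (limma 3.58.1, R 4.3.3, lmFit and eBayes, 4 residual and 5.75 prior degrees of freedom), with two-sided p-values adjusted by Benjamini-Hochberg over the 22225 probe sets. The procedure was tested on simulated data. Alternatives were other moderation, only the groups compared, a filter on dim probe sets, the brightest probe set per gene, other scalings, array weights, a replicate block and leaving out each array. All members and Myc network genes are named, and of each other wider list only genes among the 2 highest or 2 lowest changes with LMP1 or CD40. The members and lists were chosen with earlier results of these data known. Promoter sequences are RefSeq's, build GRCm38.p6.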

Additional observations from a re-analysis of the deposited data

Results flagged for a closer look

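For 12 of the 42 member probe sets the response to LMP1 and the response to CD40 differed by the test of the difference itself (limma, adjusted p under 0.05 over all probe sets). The differences, LMP1 response minus CD40 response on the log2 scale, were 1.57 for Myc, 1.27 for Polr1b, 1.04, 3.22 and 3.90 for the Nop56 probe sets 17376252, 17376272 and 17376274, 1.09 for Gar1, 1.69 for Rrp9, 1.27 for Rrp12, 1.12 for Nop14, 1.25 for Bysl, 1.94 for Rrs1 (17211000) and 1.12 for Nle1. Of these, Myc and the Nop56 probe sets 17376272 and 17376274 passed in all alternatives run for them. Nop56 17376272 did not pass with LMP1, at 0.04 ± 0.27, and fell with CD40, at -3.17 ± 0.27. Both of these Nop56 probe sets stood lower in YFP control than in naive control, at -4.89 ± 0.27 and -2.79 ± 0.17. Breed, sex, recombinase and culture of the control differ between the pairs of groups and cannot be told apart from the difference. The naive arrays also carried more signal of T cell, NK cell and erythroid markers, whose part was not tested.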

How the results depend on the processing

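The count of members that rose with LMP1 was 39 to 41 of 42 under every alternative that kept all member probe sets and 37 of 38 with the brightest probe set per gene, and 0 fell except without YFP control 2, where 1 did (leave-one-out range 0 to 1). With CD40, 25 to 29 rose under the alternatives that kept all arrays and 15 to 23 when an array was left out. The number that fell was 1 with the brightest probe set per gene, which tests fewer probe sets, and 1 to 3 with arrays left out. For LMP1 against CD40-activated the count higher was 7 to 10 without 1 array, and with the brightest probe set 0 were lower. The number whose responses differed also moved with arrays left out, among the members and over all probe sets. Between YFP control and naive control 3 were higher with array weights, 3 with the replicate block and 2 with only these groups, where 3 were lower, and with arrays left out 3 to 6 were higher and 5 to 13 lower. For CD40-activated against YFP control the ranges were 18 to 34 higher and 0 to 1 lower, and with only these groups 0 were lower.

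Signs turned only for values that had not passed. With quantile normalization within each set, Nop56 17376272 was at -0.26 with LMP1 and Myc at -0.17 with CD40. With arrays left out in turn, the change with LMP1 ran from -0.435 to 0.525 for Nop56 17376272 and from -0.90 to 0.09 for Ppan 17515058, the ends being the fits without 1 of the YFP controls. The change with CD40 ran from -0.145 to 0.305 for Myc, 0.00 to 1.62 for Odc1 and -0.765 to 0.155 for Rrs1 17211000, the ends being the fits without 1 of the naive controls. The difference of responses ran from -0.095 (without naive control 1) to 0.505 for Npm1, which was at -0.045 without YFP control 1, from -0.165 (without naive control 1) to 1.455 for Odc1, and from -0.035 (without LMP1 array 2) to 0.165 for Dkc1. Causes were not tested.

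With the replicate number as a block, 40 rose with LMP1, 26 with CD40, 19 were higher in LMP1 than in CD40-activated cells and 13 differed in response. Same-numbered arrays deviated with r = 0.0645 (LMP1 with YFP control) and -0.0709 (CD40-activated with naive control), so the numbers were not taken to pair the arrays. Scaling moved the split of all calls. Of calls with LMP1 64.0% were up, 53.4% with quantile normalization within each set and 71.1% with array medians subtracted, and with CD40 62.4%, 53.1% and 73.3%. Of all probe sets, 9.48% were higher in LMP1 than in CD40-activated cells, and 5.3% lower, but 18.2% and 13% with array weights and 17.5% and 12% with only these groups. Between YFP control and naive control 10.9% were higher and 7.81% lower, but 6.0% and 3.62% with array weights and 4.63% and 2.72% with only these groups. Between CD40-activated and YFP control 7.88% were higher and 5.97% lower, but 4.66% and 3.16% with only these groups. Leaving out an array moved these shares as well. The share that rose with LMP1 was 8.17% and 8.89% without LMP1 array 1 or 2, and that with CD40 was 4.96% and 4.81% without CD40-activated array 1 or 2. The share with a larger LMP1 response was 1.46% without LMP1 array 1 and 10.8% without YFP control 1. Quantile normalization within each set was run only for comparisons within sets and their difference.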

Other observations

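The members Fbl (fibrillarin, the methyltransferase of box C/D particles) and Tsr1 (a small subunit factor) have a probe set each that also carries another symbol. The probe set of Fbl and Tulp4 was at 10.57 and 10.41 on the LMP1 arrays, 8.63 and 6.30 on the YFP control arrays, 9.73 and 9.96 on the CD40-activated arrays and 8.94 and 9.16 on the naive control arrays. The YFP controls stood far apart there. The probe set of Tsr1 and Srr was at 9.70 and 9.85 on the LMP1 arrays, 7.79 and 7.41 on the YFP control arrays, 9.12 and 9.34 on the CD40-activated arrays and 7.86 and 8.0 on the naive control arrays. On both, the groups compared did not overlap, with LMP1 above YFP control and CD40-activated above naive control. These values were not tested, and which of the 2 genes gives the signal is not known.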
